A study of Mus musculus with 9 samples.

Results

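Nodal pathway genes were followed in embryonic stem cell derivatives in which NRF1, a transcription factor of mitochondrial biogenesis genes, was overexpressed. The 9 members encode the ligands Nodal and Gdf3, the co-receptor Tdgf1 (also called Cripto), the receptor Acvr2b, the transducers Smad2 and Smad3, the nuclear partner Foxh1 and the antagonists Lefty1 and Lefty2. They were taken by gene symbol, and each symbol matched 1 row in every table, so the members are 9 of the 56691 genes listed. All 9 passed the filter on low counts, which 16903 genes passed in total.

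RNA-seq was performed on 9 libraries from a BVSC line of mouse pluripotent stem cells (PSCs), which carries Blimp1-mVenus (BV) and Stella-CFP reporters of germ cell genes. Embryoid bodies from these PSCs were sorted into BV+ PGC-like cells (PGCLCs) and BV- somatic cells, and the methods give day 5 for the sort of BV+ cells. NRF1 OE libraries came from PSCs with a lentiviral p20 vector that carries mouse Nrf1 cDNA under doxycycline (DOX) control, and Ctrl libraries came from PSCs with the empty vector. DOX was present at 1.5 μg/ml from day 2 to day 5 in all 4 groups. There were 2 libraries of BV+ NRF1 OE, 2 of BV+ Ctrl, 3 of BV- NRF1 OE and 2 of BV- Ctrl. Infected PSCs were selected with a drug, and the sort rests on 1 reporter. The comparisons ask how NRF1 OE altered each sorted population, how the populations differed, and whether the effect of NRF1 OE differed between them.

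Nodal is a secreted ligand of the TGF-β family that is cleaved by proprotein convertases and bound by type I and type II activin receptors together with a Cripto co-receptor. The receptors phosphorylate SMAD2 and SMAD3, which enter the nucleus with SMAD4 and bind DNA beside FOXH1. Nodal, Lefty1 and Lefty2 are themselves targets of this complex, so the ligand sustains its own expression and that of its inhibitors. In the early mouse embryo the pathway patterns the epiblast and directs mesoderm and endoderm, and in pluripotent cells it is active together with the core pluripotency factors.

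Total counts per library lay between 13702162 and 19625460, and every member had at least 575 counts in each library. Levels of single genes are given as CPM, counts scaled to TMM-adjusted depth. Nrf1 itself measured 90.4 and 91.1 CPM in BV+ Ctrl, and 95.7 and 99.4 CPM in BV+ NRF1 OE. Its BV- levels were 99.1 and 105 CPM with Ctrl, and 119, 122 and 126 CPM with NRF1 OE. Every NRF1 OE library was therefore above its Ctrl libraries, but the differences of 0.10 (SE 0.10) and 0.26 (SE 0.10) on the log2 scale had edgeR adjusted p-values of 0.489 and 0.0718. With the GC and length offsets described below they were 0.28 (adjusted p = 0.0922) and 0.53 (adjusted p = 0.0304), so Nrf1 was called higher in BV- cells in that fit. Whether reads of the vector's cDNA were counted on the Nrf1 gene is not given in the sources used here, which limits Nrf1 as a check of the overexpression. In these libraries the BV label was not matched by its reporter gene, Prdm1, which encodes Blimp1. Prdm1 measured 57.5 to 62.8 CPM in BV+ Ctrl and 57.3 to 58.6 CPM in BV- Ctrl. The paper also used RT-PCR to measure germ cell markers in BV+ against BV- cells, and Nrf1 after induction. By RT-PCR it reports Blimp1 as higher with NRF1 OE in BV+ cells. In the libraries Prdm1 was at 0.91-fold of Ctrl in that comparison (edgeR adjusted p = 0.589). The summed level of 8 germ cell markers was 370.1 to 376 CPM in BV+ Ctrl and 387 to 394 CPM in BV- Ctrl, and with NRF1 OE it was 408 to 410 CPM in BV+ and 454 to 547 CPM in BV- cells. The summed level of 10 markers of undifferentiated PSCs was 2459 to 3465 CPM over the 9 libraries. For 6 formative epiblast markers the sum was 513 to 686 CPM, for 8 mesoderm markers 10.7 to 40.9 CPM, for 7 endoderm markers 11.5 to 27.8 CPM, and for 5 neuroectoderm markers 30.0 to 167 CPM. No marker was at 0 in every library. None of the 8 germ cell markers was called between BV+ and BV- Ctrl, and with NRF1 OE 1 was higher and 3 were lower in BV+ cells. The groups are therefore named below by their labels alone. In bulk libraries, fewer cells of a type and less RNA per cell cannot be told apart.

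The promoters show how the members differ in base composition, and whether letters bound by NRF1 or by SMADs occur near their starts. Of the 9 members, 4 had an entry among the RefSeq promoters of GRCm38.p6 that were searched for members. The 250 bases before the start are given for 3 of them. A chromosome was left out of that search, so a member with an entry there would not be counted. Smad3 (chr9:63757995-63758244, minus strand) was higher with NRF1 OE in BV+ cells, while Nodal (chr10:61417722-61417971, plus strand) and Tdgf1 (chr9:110946159-110946408, minus strand) are the ligand and its co-receptor. Capitals mark TGCGCA, an NRF1 half-site that reads the same on both strands, and CAGAC or GTCTG, the SMAD-binding element on either strand.
Smad3 promoter: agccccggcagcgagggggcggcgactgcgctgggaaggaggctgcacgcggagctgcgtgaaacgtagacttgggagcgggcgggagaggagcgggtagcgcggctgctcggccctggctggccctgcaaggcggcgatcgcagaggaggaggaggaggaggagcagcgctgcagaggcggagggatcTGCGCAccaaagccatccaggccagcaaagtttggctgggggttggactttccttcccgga
Nodal promoter: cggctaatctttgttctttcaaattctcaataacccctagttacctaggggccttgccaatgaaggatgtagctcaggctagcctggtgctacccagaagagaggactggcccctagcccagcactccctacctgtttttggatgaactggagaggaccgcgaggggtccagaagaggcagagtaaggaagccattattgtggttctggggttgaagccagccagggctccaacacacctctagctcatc
Tdgf1 promoter: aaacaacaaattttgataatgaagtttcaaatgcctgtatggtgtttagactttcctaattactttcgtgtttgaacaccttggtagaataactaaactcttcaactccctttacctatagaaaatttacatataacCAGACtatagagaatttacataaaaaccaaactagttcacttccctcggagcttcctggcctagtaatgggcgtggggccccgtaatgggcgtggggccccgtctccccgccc
The Smad3 window held 1 NRF1 half-site, which begins 61 bases before the start, and no SMAD-binding element. Tdgf1 had 1 SMAD-binding element that begins 113 bases before the start, and neither set of letters was found in the Nodal window. Among all 32851 RefSeq promoters of the same length, 6.43% held the half-site and 42.2% the SMAD-binding element. GC content was 69.2% in the Smad3 window, 53.2% in that of Nodal and 42% in that of Tdgf1. The window of Acvr2b, the other member with an entry, had 72.8% GC, 1 SMAD-binding element and no NRF1 half-site. A match to these letters is a description and was not tested for binding.

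Levels per transcript length placed the antagonists first in every group. In BV+ Ctrl, Lefty2 had the highest mean at 87.3 ± 4.95 FPKM (the authors' measure scaled to transcript length and depth; SD, n = 2), followed by Lefty1 at 70.9 ± 2.27, Tdgf1 at 49.1 ± 1.18 and Gdf3 at 48.7 ± 2.09 FPKM. Nodal at 29.6 ± 0.67 and Foxh1 at 27.4 ± 1.18 FPKM came next, and then Acvr2b at 14.1 ± 0.66, Smad2 at 10.5 ± 0.36 and Smad3 at 8.28 ± 0.69 FPKM. Of the neighbours in this order, Tdgf1 and Gdf3 overlapped between libraries and the others did not. The order in BV- Ctrl differed only in that Gdf3, at 60.3 ± 3.16 FPKM, stood above Tdgf1, at 42.0 ± 0.50 FPKM, and there Lefty2 overlapped with Lefty1 and Nodal with Foxh1. With NRF1 OE, Lefty1 stood above Lefty2 and Smad3 above Smad2 in the means of both populations. Lefty1 reached 127 ± 19.1 FPKM (SD, n = 3) in BV- NRF1 OE, the highest mean of any member, while Tdgf1 there was sixth at 29.0 ± 4.01 FPKM. In that group, Foxh1 overlapped with Nodal and Smad3 with Smad2, and in BV+ NRF1 OE the ranges of Gdf3, Tdgf1 and Nodal overlapped as neighbours.

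**Figure D1:**
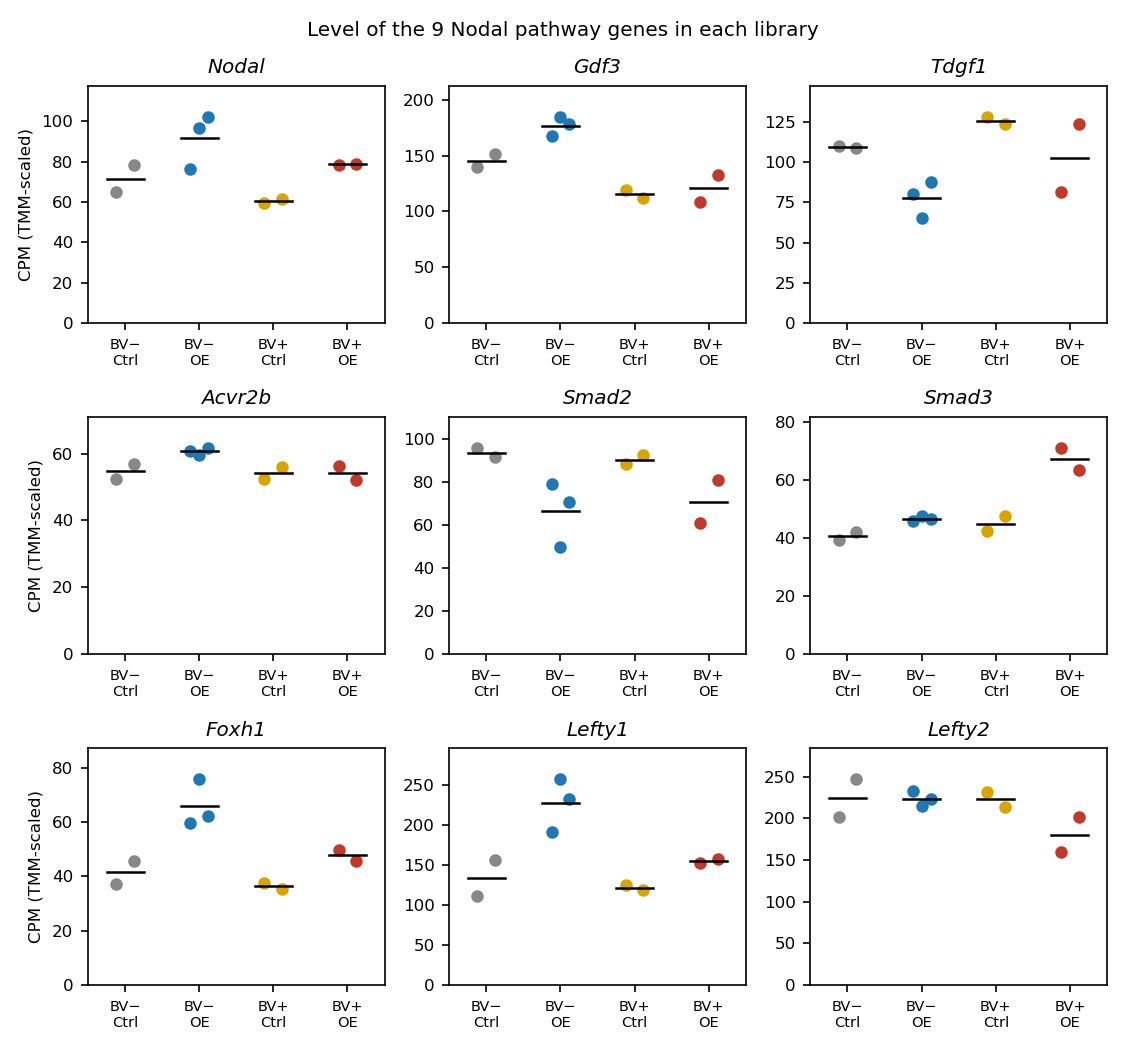
Level of each member in every library, as TMM-scaled CPM on an axis that starts at 0. Points are libraries, black lines are group means, and OE stands for NRF1 OE. The 2 BV+ NRF1 OE points of Smad3 (63.2 and 70.9 CPM) and the 3 BV- NRF1 OE points of Lefty1 (192 to 258 CPM) lie above all other libraries of the same gene.

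NRF1 OE was accompanied by a higher level of 1 member in BV+ cells and of 2 members in BV- cells, and no member was called lower. In BV+ cells the member was Smad3, at 1.50-fold of Ctrl. One of 9 members compares with 6.24% of all genes tested that were called higher and 1.78% called lower (edgeR quasi-likelihood test, Benjamini-Hochberg adjusted p under 0.05 over all genes). In BV- cells Lefty1, at 1.70-fold, and Foxh1, at 1.59-fold, were called higher, beside 10.2% of all genes called higher and 6.98% called lower. In the same BV- comparison 5 of 8 germ cell markers were called higher and none lower, among them Nanos3 (2.03-fold) and Dppa3 (1.79-fold). Of 10 PSC markers 2 were higher and 3 lower, and 1 of 6 tested mesoderm and 1 of 6 tested endoderm markers were lower. The part of these markers in the member values was not tested. By the study's threshold, an unadjusted p under 0.05 with a log2 fold change beyond 0.58 in either direction, the members past it were again Smad3 in BV+ cells and Lefty1 and Foxh1 in BV- cells, against 17.0% and 16.0% of all genes. The median log2 fold change of the members was 0.07 in BV+ and 0.19 in BV- cells, and that of all genes was 0.04 and 0.01. Libraries did not overlap between NRF1 OE and Ctrl for 6 members in BV+ cells, where 70.1% of all genes did not overlap, and for 7 members in BV- cells, where the share was 57.0%.

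Fewer members were called between the populations with Ctrl than with NRF1 OE. With Ctrl, no member differed between BV+ and BV- cells, beside 1.10% of all genes called higher and 0.0237% called lower in BV+ cells. One member, Gdf3, had an unadjusted p under 0.05, and DESeq2 called no member either. With NRF1 OE, 4 members were called: Smad3 was higher in BV+ cells, and Gdf3, Lefty1 and Foxh1 were lower, beside 9.90% of all genes called higher and 3.85% called lower. None of the 9 members passed the study's threshold in these comparisons, against 5.74% of all genes with Ctrl and 14.7% with NRF1 OE. Non-overlapping libraries were found for 4 members with Ctrl, beside 48.0% of all genes, and for 6 with NRF1 OE, beside 39.9%. The medians of the members, BV+ against BV-, were -0.05 with Ctrl and -0.22 with NRF1 OE, and those of all genes were -0.01 and -0.005.

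A test of the difference itself did not separate the NRF1 OE effect in BV+ cells from that in BV- cells for any member. No gene passed an adjusted p of 0.05 (0.00% of all genes), while 932 genes and 1 member, Smad3, had an unadjusted p under 0.05. DESeq2 called 22 genes and none of the members. By the study's threshold 4.48% of all genes and none of the members passed. Estimates for the members, as the log2 effect in BV+ minus that in BV- cells, ran from -0.41 for Lefty1 (95% interval -0.91 to 0.09) to 0.39 for Smad3 (0.03 to 0.75, adjusted p = 0.840). These comparisons share libraries with each other, so the values in the following paragraphs are given side by side.

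Libraries also differed in how gene levels followed the GC content and the length of transcripts. Over 12702 genes, the Spearman correlation of a gene's deviation from its mean with transcript GC content ran from -0.60 to -0.52 over the 4 Ctrl libraries. The BV+ NRF1 OE libraries had 0.33 and -0.005, and the BV- NRF1 OE libraries 0.06, 0.70 and 0.58. Foxh1 (59.1% GC), Lefty1 (58.6%) and Nodal (55.9%) have GC-rich transcripts, and Smad2 (44.9%) and Tdgf1 (45.3%) lie below the median of 49.8% over the genes tested. The 3 GC-rich members had positive and the 2 GC-poor members negative log2 fold changes with NRF1 OE in both populations. The other members did not all follow GC content: Lefty2 (51.5%) gave -0.30 and Acvr2b (54.4%) -0.0009 in BV+ cells, and Gdf3 (49.5%) was positive in both populations. Refitting the counts with per-library offsets, which remove the dependence on GC content and length, moved 7 of the 9 members nearer to 0 in BV+ cells and 8 in BV- cells. With these offsets Smad3 and Lefty2 were called in BV+ cells, and no member was called in BV- cells. Of the 16662 genes in that fit, 2049 were called in BV+ cells and 914 in BV- cells. Whether the GC and length trends are technical or part of the response was not tested, and both values are given for each member.

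**Figure D2:**
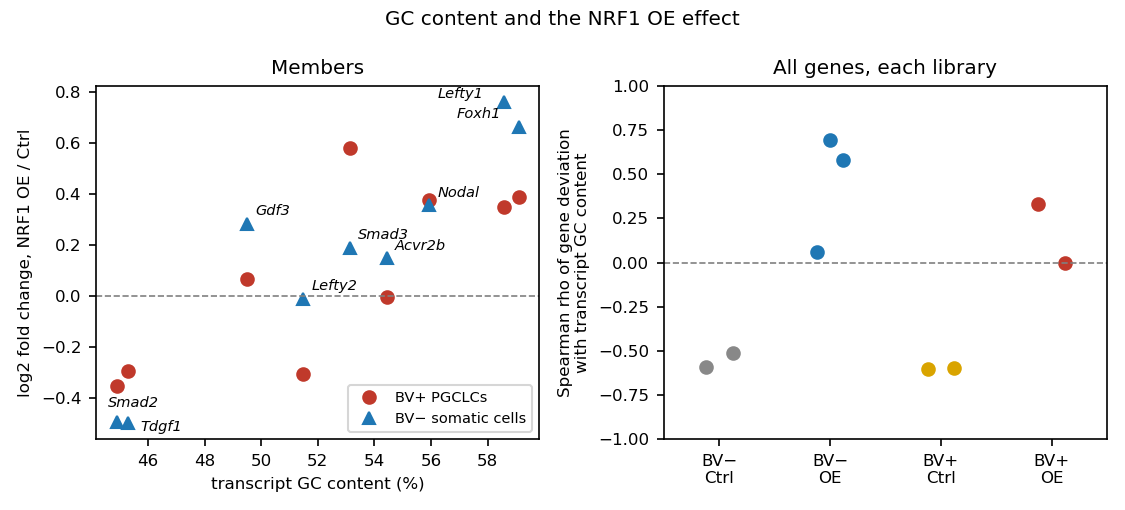
Left, log2 fold change with NRF1 OE against transcript GC content (%) for the 9 members, with circles for BV+ and triangles for BV- cells. Right, Spearman correlation of gene deviation with GC content over 12702 genes, 1 point per library, where the 4 Ctrl libraries lie between -0.60 and -0.52 and the NRF1 OE libraries at or above -0.005.

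Of the ligands, Nodal measured 59.6 and 61.4 CPM in BV+ Ctrl and 78.3 and 79.0 CPM in BV+ NRF1 OE, so the libraries did not overlap. The BV- levels were 65.0 and 78.1 CPM with Ctrl and 76.5, 96.7 and 102 CPM with NRF1 OE. The lowest of these 3 lay within the Ctrl range. The log2 fold change was 0.38 in BV+ cells (SE 0.15, adjusted p = 0.113) and 0.36 in BV- cells (SE 0.14, adjusted p = 0.0813), neither of which passed. With GC and length offsets the values were 0.04 and -0.03. The BV+ value was called in 2 of 19 alternatives, a fit of these groups alone (adjusted p = 0.0374) and without BV- NRF1 OE replicate 1 (adjusted p = 0.0495). The BV- value was called in 1 of 19, without that same library (adjusted p = 0.0126). Between the populations, BV+ against BV-, the log2 differences were -0.24 with Ctrl (adjusted p = 0.832) and -0.22 with NRF1 OE (adjusted p = 0.319).

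Gdf3, a ligand that also signals through Cripto and activin receptors, was the member ligand called between the populations with NRF1 OE. With Ctrl it was not called in the fit of all 9 libraries. It measured 112 and 119 CPM in BV+ Ctrl against 139 and 151 CPM in BV- Ctrl. With NRF1 OE it measured 109 and 133 CPM in BV+ cells, and 168, 178 and 185 CPM in BV- cells. All BV+ libraries were below all BV- libraries. The log2 difference was -0.33 with Ctrl (SE 0.12, unadjusted p = 0.0189, adjusted p = 0.424; 0.00986 in a fit of these 2 groups alone), and -0.55 with NRF1 OE (SE 0.11, adjusted p = 0.00765). The latter was -0.51 with offsets (adjusted p = 0.000928), and it was -0.41 without BV+ NRF1 OE replicate 1 (adjusted p = 0.109). With NRF1 OE against Ctrl, Gdf3 gave 0.07 in BV+ cells (adjusted p = 0.720) and 0.28 in BV- cells (adjusted p = 0.0871), and with offsets 0.006 and 0.21. In BV- cells its 3 NRF1 OE libraries were all above Ctrl.

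The co-receptor gene Tdgf1, whose protein lets Nodal reach its receptors, had negative estimates with NRF1 OE. It measured 124 and 128 CPM in BV+ Ctrl, and 81.6 and 124 CPM in BV+ NRF1 OE, where replicate 2 lay within the Ctrl range. In BV- cells the levels were 109 and 110.1 CPM with Ctrl, and 65.1, 79.9 and 87.9 CPM with NRF1 OE, without overlap. The log2 fold change was -0.29 in BV+ cells (SE 0.18, adjusted p = 0.280) and -0.50 in BV- cells (SE 0.17, adjusted p = 0.0585), so neither passed. The BV- value had an adjusted p of 0.0302 by DESeq2, and it was -0.34 with offsets (adjusted p = 0.121), which gave -0.19 in BV+ cells. BV+ against BV- differences were 0.20 with Ctrl and 0.40 with NRF1 OE, with adjusted p-values of 0.945 and 0.143. The BV+ NRF1 OE libraries decide these values: without replicate 1 the NRF1 OE effect in BV+ cells was -0.02 and the difference with NRF1 OE was 0.67 (adjusted p = 0.0409), and without replicate 2 they were -0.62 and 0.07. The pseudogene Tdgf1-ps1 shares 4.69% of the 100-base windows of Tdgf1 and had 96 to 200 counts per library. A small part of the Tdgf1 reads may therefore match both, and how such reads were counted is not given in the sources used here.

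Acvr2b, a type II activin receptor, had the narrowest range of the members. It measured 52.4 and 55.9 CPM in BV+ Ctrl, 52.0 and 56.3 CPM in BV+ NRF1 OE, 52.3 and 57.0 CPM in BV- Ctrl, and 59.7, 60.7 and 61.7 CPM in BV- NRF1 OE. With NRF1 OE the log2 fold change was -0.0009 in BV+ cells (95% interval -0.25 to 0.25) and 0.15 in BV- cells (-0.08 to 0.38). Offsets gave -0.26 and -0.13, and neither was called. The BV- NRF1 OE libraries lay above all others. BV+ against BV- differences were -0.01 with Ctrl (adjusted p = 1.00) and -0.17 with NRF1 OE (adjusted p = 0.337). The gene overlaps Gm47320 on the opposite strand, and the strand setting of the counting is not given in the sources used here.

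Smad3 was the only member called with NRF1 OE in BV+ cells in the fit without offsets. It measured 42.2 and 47.4 CPM in BV+ Ctrl, and 63.2 and 70.9 CPM in BV+ NRF1 OE. BV- cells had 39.3 and 42.1 CPM with Ctrl, and 45.7, 46.3 and 47.4 CPM with NRF1 OE. The BV+ NRF1 OE libraries stood above all 7 others. The log2 fold change in BV+ cells was 0.58 (SE 0.12, adjusted p = 0.0244), and in BV- cells it was 0.19 (SE 0.11, adjusted p = 0.227). With offsets these were 0.43 (adjusted p = 0.0179) and 0.07 (adjusted p = 0.656). The BV+ call was lost without BV+ NRF1 OE replicate 1 (0.50, adjusted p = 0.256), without BV+ Ctrl replicate 1 (0.50, adjusted p = 0.178) and without BV+ Ctrl replicate 2 (0.67, adjusted p = 0.191). With NRF1 OE, Smad3 was higher in BV+ than in BV- cells by 0.53 on the log2 scale (SE 0.11, adjusted p = 0.00806), and by 0.42 with offsets (adjusted p = 0.00395). Without BV+ NRF1 OE replicate 1 that difference was 0.45 (adjusted p = 0.102). With Ctrl the populations differed by 0.14 (adjusted p = 0.939).

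Smad2, the other receptor-regulated SMAD of the pathway, had estimates of the opposite sign. It measured 88.2 and 92.4 CPM in BV+ Ctrl, and 60.6 and 81.0 CPM in BV+ NRF1 OE. BV- cells had 91.3 and 95.7 CPM with Ctrl, and 49.5, 70.8 and 78.9 CPM with NRF1 OE. All 5 NRF1 OE libraries lay below all 4 Ctrl libraries, with a wide spread among them. Log2 fold changes were -0.35 in BV+ cells (SE 0.20, adjusted p = 0.230) and -0.49 in BV- cells (SE 0.18, adjusted p = 0.0702), and neither passed. DESeq2 called the BV- value (adjusted p = 0.0379), as it did that of Tdgf1, so that it called 2 members higher and 2 lower in BV- cells. Over all 16903 genes tested, DESeq2 called 3792 in this comparison, 50.8% of them higher. Offsets brought these to -0.09 and -0.04. BV+ against BV- differences were -0.05 with Ctrl (adjusted p = 1.00) and 0.09 with NRF1 OE (adjusted p = 0.787). The FPKM ratio of Smad3 to Smad2 within a library was 0.65 to 0.81 in the 4 Ctrl libraries and 0.92 to 1.85 in the 5 NRF1 OE libraries. Smad3 has the more GC-rich transcript of the pair (53.1% against 44.9%) and the shorter one (5090 against 8089 bases). The part of GC content and length in this ratio was not tested. Smad2 and Smad3 share none of their 50-base windows, so they have no stretch of that length in common.

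Foxh1, the forkhead factor that recruits SMAD2 and SMAD3 to DNA, was higher with NRF1 OE in BV- cells. It measured 37.4 and 45.7 CPM in BV- Ctrl, and 59.7, 62.3 and 76.0 CPM in BV- NRF1 OE. The BV+ levels were 35.4 and 37.7 CPM with Ctrl, and 45.9 and 49.9 CPM with NRF1 OE. Groups did not overlap in either population. NRF1 OE gave a log2 fold change of 0.67 in BV- cells (SE 0.14, adjusted p = 0.0317), and 0.39 in BV+ cells (SE 0.15, adjusted p = 0.109). With offsets these were 0.18 (adjusted p = 0.239) and -0.06 (adjusted p = 0.721). The BV- call was also lost without any 1 of BV- NRF1 OE replicate 3 and the 4 Ctrl libraries, with log2 fold changes of 0.53 to 0.81 and adjusted p-values of 0.0595 to 0.311. With NRF1 OE, Foxh1 was lower in BV+ than in BV- cells by -0.46 on the log2 scale (SE 0.14, adjusted p = 0.0476). This was -0.37 with offsets (adjusted p = 0.00947), and it lost its call without any 1 library other than BV- NRF1 OE replicate 1 (adjusted p-values of 0.0622 to 0.210). With Ctrl the difference was -0.19 (adjusted p = 0.925). The ratio of Foxh1 to Smad2 FPKM was 2.46 to 3.22 in the Ctrl libraries and 3.64 to 9.86 in the NRF1 OE libraries. Foxh1 has the most and Smad2 the least GC-rich transcript of the members, and they are also the shortest and the longest (1365 and 8089 bases). With offsets neither gene was called with NRF1 OE.

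The antagonist genes Lefty1 and Lefty2, whose proteins bind Nodal and its co-receptor, had unlike estimates with NRF1 OE. Lefty1 measured 112 and 157 CPM in BV- Ctrl, and 192, 233 and 258 CPM in BV- NRF1 OE. It measured 119 and 125 CPM in BV+ Ctrl, and 153 and 158 CPM in BV+ NRF1 OE. Groups did not overlap in either population, although BV- Ctrl replicate 2 reached the level of BV+ NRF1 OE. The log2 fold change was 0.76 in BV- cells (SE 0.16, adjusted p = 0.0317), and 0.35 in BV+ cells (SE 0.17, adjusted p = 0.170). With offsets these were 0.29 (adjusted p = 0.123) and -0.07 (adjusted p = 0.734). The BV- call was lost without any 1 of BV- NRF1 OE replicate 3 and the 4 Ctrl libraries, with log2 fold changes of 0.54 to 1.01 and adjusted p-values of 0.0595 to 0.311. With NRF1 OE, Lefty1 was lower in BV+ than in BV- cells by -0.55 on the log2 scale (SE 0.15, adjusted p = 0.0370), and by -0.46 with offsets (adjusted p = 0.00996). The latter comparison lost its call without any 1 of BV+ NRF1 OE replicates 1 and 2, BV- NRF1 OE replicate 3 and both BV+ Ctrl libraries, with adjusted p-values of 0.0643 to 0.195. With Ctrl the difference was -0.14 (adjusted p = 0.984).

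Lefty2 measured 214 and 232 CPM in BV+ Ctrl, and 160 and 201 CPM in BV+ NRF1 OE, without overlap. In BV- cells it measured 202 and 247 CPM with Ctrl, and 214, 223 and 232 CPM with NRF1 OE, all within the Ctrl range. The log2 fold change was -0.30 in BV+ cells (SE 0.14, adjusted p = 0.149), and -0.46 with offsets (adjusted p = 0.0322). In BV- cells it was -0.009 (95% interval -0.28 to 0.26), and -0.18 with offsets. BV+ against BV- differences were -0.01 with Ctrl (adjusted p = 1.00) and -0.31 with NRF1 OE (adjusted p = 0.135). The FPKM ratio of Lefty1 to Lefty2 was 0.80 and 0.83 in BV+ Ctrl, 0.82 and 0.94 in BV- Ctrl, 1.17 and 1.42 in BV+ NRF1 OE, and 1.23, 1.55 and 1.79 in BV- NRF1 OE. It was above 1 in each of the 5 NRF1 OE libraries and below 1 in each of the 4 Ctrl libraries. The transcripts share 4.80% of the 100-base windows of Lefty1 and 3.07% of those of Lefty2, so reads of these stretches may match both. How such reads were counted is not given in the sources used here. Lefty1 is also the more GC-rich of the pair (58.6% against 51.5%) and the shorter one (1620 against 2473 bases). The part of GC content and length in the ratio was not tested.

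**Figure D3:**
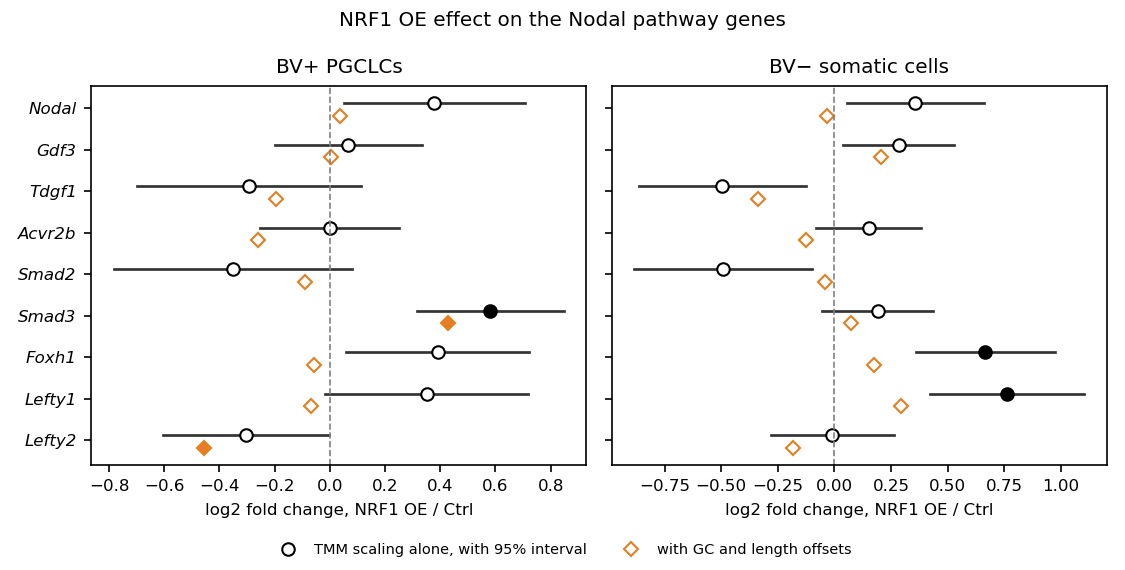
Log2 fold change of each member with NRF1 OE against Ctrl in BV+ (left) and BV- cells (right). Circles with bars are the TMM-scaled edgeR fit and its 95% interval, diamonds the fit with GC and length offsets, and filled marks have an adjusted p under 0.05. Smad3 is filled in both fits in BV+ cells, while Lefty1 (0.76 and 0.29) and Foxh1 (0.67 and 0.18) are filled only without offsets in BV- cells.

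**Figure D4:**
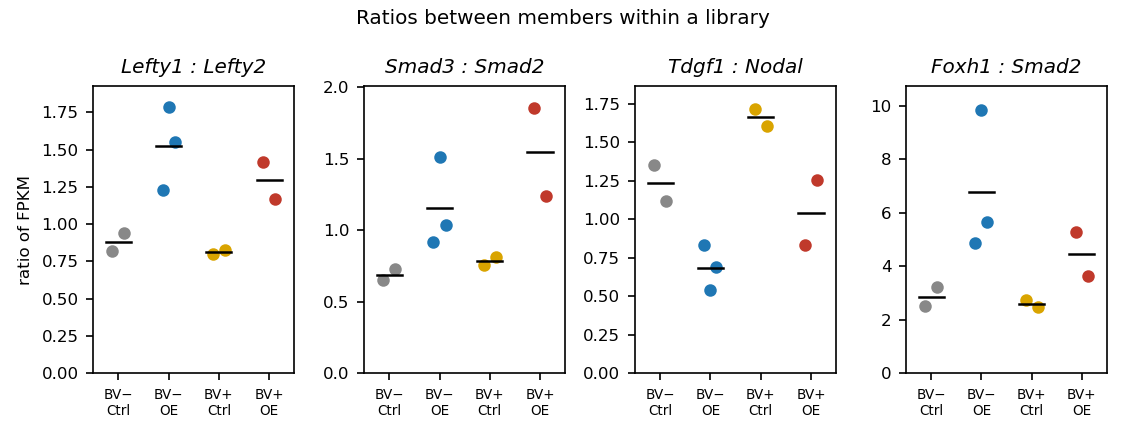
Ratios of FPKM between members of the same library, with points for libraries and black lines for group means. The ratios of Lefty1 to Lefty2, Smad3 to Smad2 and Foxh1 to Smad2 lie higher in the 5 NRF1 OE than in the 4 Ctrl libraries. Tdgf1 to Nodal runs from 0.54 to 1.25 with NRF1 OE and from 1.12 to 1.72 with Ctrl. The genes of each pair differ in GC content and length, and the part of these in the ratios was not tested.

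Across the 9 libraries, members with a like pattern were Lefty1 and Foxh1 (Pearson r = 0.98 of log2 CPM), Nodal and Lefty1 (0.93) and Nodal and Foxh1 (0.90). Tdgf1 ran with Smad2 (0.86) and against Foxh1 (-0.90). Gdf3, just below the median GC content, also ran with Lefty1 (0.81), Foxh1 (0.79) and Nodal (0.74). The libraries share the GC and length trends described above, and their part in these values was not tested. Among all other genes tested, the 2 closest to Nodal were Wsb2 and Stra6 (r = 0.99 each), and those closest to Lefty1 were Mrps18b and Galt (0.99 each). Lefty2 was closest to Gpt2 (0.95) and Ubr7 (0.94), Tdgf1 to Arel1 and Pcgf3 (0.98 each), and Gdf3 to Tex19.1 and Kars (0.99 each). Stra6 had only 20 to 88 counts per library. These genes were picked for the highest r among all genes tested over 9 libraries, so the values are a description only.

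The wider pathway was described with 34 further genes for ligands, processing, receptors, SMAD partners, feedback and embryonic targets, of which 29 passed the filter. The other 5 were Gdf1, Inhba, Acvr1c, Mixl1 and Cer1, each with at most 8 counts in a library. Gdf1, at 0 CPM in every group, overlaps Cers1 on the same strand. How reads of that overlap were counted is not given in the sources used here. In BV+ cells 4 of the 29 were called higher with NRF1 OE and none lower, beside 6.24% and 1.78% of all genes. Of these 4, 3 are described. Tgfb1, a TGF-β ligand, measured 9.70 and 9.97 CPM with Ctrl and 18.6 and 32.6 CPM with NRF1 OE, a log2 fold change of 1.38 (SE 0.28, adjusted p = 0.0221). Furin, a convertase that cleaves the Nodal precursor, measured 37.0 and 41.5 CPM with Ctrl and 60.8 and 79.8 CPM with NRF1 OE, a log2 fold change of 0.84 (adjusted p = 0.0204). In the same comparison the neuroectoderm marker sum was 66.6 to 73.4 CPM with Ctrl and 114 to 167 CPM with NRF1 OE, with 1 of 5 markers called higher (Nes, 3.03-fold), and the mesoderm sum was 22.6 to 26.7 CPM and 29.7 to 40.9 CPM, with 1 of 6 tested called higher (Kdr, 2.81-fold) and 1 lower. The PSC marker sum was 2834 to 2980 CPM with Ctrl and 2459 to 2816 CPM with NRF1 OE, with 2 of 10 markers called lower. The part of these markers in the results was not tested. Tgfb1 and Furin were 1.17 and 0.60 with offsets and kept their calls (adjusted p = 0.0140 and 0.0101). Drap1, a corepressor that binds FOXH1, gave 0.60, and 0.11 with offsets, where it was not called. The median over the 29 genes was -0.09, beside 0.04 over all genes. None of the 29 was called without BV+ NRF1 OE replicate 1 or without either BV+ Ctrl library, 2 were called without BV- Ctrl replicate 1, and 11 without BV- NRF1 OE replicate 2.

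In BV- cells 3 of the 29 wider genes were called higher with NRF1 OE and 3 lower, beside 10.2% and 6.98% of all genes. Furin gave 0.64 (SE 0.15, adjusted p = 0.0327), and 0.44 with offsets (adjusted p = 0.0398). Drap1 at 0.60 and Tgif2, a repressor of SMAD-driven transcription, at 0.66 were also higher. Trim33, a chromatin partner of SMAD2 and SMAD3, gave -0.81, Skil, a SMAD corepressor, -0.78, and Smurf2, a ubiquitin ligase of SMADs and receptors, -0.52. Of these 6 genes, Furin was the only one called with offsets, under which the log2 fold changes of the other 5 had sizes between 0.07 and 0.34 with unchanged signs. The median over the 29 genes was 0.03, beside 0.01 over all genes. None of the 29 was called without BV- NRF1 OE replicate 3 or without any 1 of the 4 Ctrl libraries, and 10 were called without BV- NRF1 OE replicate 1.

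Between the populations, the wider genes are described with NRF1 OE. In BV+ cells 4 of the 29 were higher and 1 was lower, beside 9.90% and 3.85% of all genes. Of these 5, 4 are described. Tgfb1 was higher by 1.92, Fgf8, a growth factor of the primitive streak, by 1.65 and Fst, which encodes the activin inhibitor follistatin, by 1.25 on the log2 scale. Otx2, an epiblast factor, was lower at -0.43 (adjusted p = 0.0461). These 4 were called with offsets too, at 1.95, 1.71, 1.14 and -0.47. Otx2 was called in 9 of 19 alternatives, with values from -0.66 to -0.23. Of the 5 genes called, 3 were called without BV+ NRF1 OE replicate 1. In the same comparison the neuroectoderm marker sum was 114 to 167 CPM in BV+ and 37.9 to 49.4 CPM in BV- cells, and the mesoderm sum was 29.7 to 40.9 CPM and 10.7 to 11.7 CPM; their part in these differences was not tested. No wider gene differed in its NRF1 OE effect between the populations at an adjusted p under 0.05 by edgeR or DESeq2, while 2, Tgfb1 among them, had an unadjusted edgeR p under 0.05.

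The shared mediator Smad4 and the receptors Acvr1b and Acvr2a were not called in any comparison. Smad4 measured 106 to 136 CPM over the 9 libraries, with log2 fold changes with NRF1 OE of -0.09 in BV+ and -0.18 in BV- cells (adjusted p = 0.604 and 0.234). Acvr1b, a type I receptor, measured 56.2 to 70.5 CPM and gave 0.08 and 0.21 (adjusted p = 0.642 and 0.174). Acvr2a, a type II receptor like Acvr2b, measured 9.36 to 21.3 CPM and gave -0.25 and -0.57 (adjusted p = 0.428 and 0.0699).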

How the data were processed

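RNA-seq reads were trimmed by the authors with Cutadapt and checked with FastQC, mapped to GRCm39 with HISAT2 2.0.1 and counted per gene with HTSeq 0.6.1, per the labels and the study's methods. The authors deposited a raw count and an FPKM value for each gene and library. FPKM were used here to order genes and for ratios. Replicates are biological by the methods, without detail. Counts were tested with edgeR 4.0.16 in R 4.3.3 by the two-sided quasi-likelihood F test, fitting the 9 libraries together with 4 group means, TMM factors (0.969 to 1.026) and the filterByExpr filter. P-values were adjusted over 16903 genes, and a gene was called at an adjusted p under 0.05. CPM used TMM-scaled depths, and log2 CPM a prior count of 2. Intervals are 95%. Transcript GC content and length came from a GRCm38 annotation, by identifier, for 98.6% of genes tested. Named genes were the members, called wider genes with Smad4, Acvr1b and Acvr2a, the 2 genes most correlated with each of 5 members, Nrf1, and sums of the germ cell, PSC, formative epiblast, mesoderm, endoderm and neuroectoderm markers. One wider gene is not reported here. Members and lists were chosen with earlier results of these data known. The fits were tested on simulated data. Alternatives were DESeq2 1.42.0, other scalings and filters, fits of the groups compared alone, the replicate number as a term, offsets and each library left out. Figures used matplotlib 3.10.9.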

Additional observations from a re-analysis of the deposited data

How the results depend on the processing

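No member reversed under any of the alternatives run. Of 846 log2 fold changes of members recomputed, 778 kept their side of the threshold, but most of these were never called. Another 45 called values lost their call and 23 values that were not called passed. The 45 losses fall on few values, each with 19 alternatives. Between the populations with NRF1 OE, Foxh1 lost 12, Lefty1 7, Gdf3 2 and Smad3 2. With NRF1 OE against Ctrl, Foxh1 and Lefty1 lost 9 each in BV- cells and Smad3 4 in BV+ cells. In addition, 45 values changed sign while not called in either fit. The number of members called with NRF1 OE in BV+ cells was 1, against 2 with GC and length offsets, 5 in a fit of the groups compared alone and 0 to 3 with 1 library left out. In BV- cells it was 2, against 4 with upper-quartile factors, without a filter or by DESeq2, 0 with GC and length offsets, with or without the block below, 0 in a fit of the groups compared alone, and 0 to 5 with 1 library left out. For BV+ against BV- cells it was 0 with Ctrl, against 1 in a fit of these groups alone and 0 with each library left out, and 4 with NRF1 OE, against 2 in such a fit, 0 by the study's threshold and 1 to 4 with 1 library left out. The cause of these shifts was not tested. The 5 members called with NRF1 OE in the fit of the BV+ groups alone were Smad3, Nodal and Lefty1, which were higher, and Smad2 and Lefty2, which were lower. The replicate number as a block in the fit left 0 members called in each of the 5 comparisons. The block with offsets called 1 with NRF1 OE in BV+ cells and 4 between the populations with NRF1 OE. Deviations of same-numbered libraries had correlations of -0.243 to 0.246 between groups. Whether same-numbered libraries were prepared together is not given in the sources used here. These correlations, from 1 pair of libraries per group, cannot decide it. Over all genes, 1355 genes called with NRF1 OE in BV+ cells became 3 with the replicate block, 3440 without a filter, 2049 with offsets (54% higher, against 77.8%), 4371 in a fit of these groups alone, and 0 to 4957 with 1 library left out. For BV- cells 2910 became 0, 4392, 914, 0 and 0 to 5847. With Ctrl, the 190 genes that differed between the populations became 121, 529, 286, 890 and 31 to 484, and with NRF1 OE the 2325 genes became 1064, 2812, 4093 (46% higher, against 72%), 1260 and 786 to 3182. With library size alone, the share higher in BV- cells was 45.1% against 59.5%, and with upper-quartile factors the share in BV+ cells was 60.2%. Wider genes called with NRF1 OE ranged from 0 to 11 in BV+ and from 0 to 10 in BV- cells with 1 library left out. DESeq2 gave 300 genes between the populations with Ctrl, and 22 genes for the difference of the NRF1 OE effects, where edgeR without a filter gave 108. Each member had at least 575 counts in every library. Groups held 2 or 3 libraries, and where 1 was left out of a group of 2, the remaining library was assumed to vary like the other groups.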
